A study of Mus musculus with 4 samples.

Results

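The genes described here encode respiratory complex I, the NADH:ubiquinone oxidoreductase of the inner mitochondrial membrane. They were taken by name, as every gene of the deposited table whose symbol starts with Nduf, and 39 of the 9244 genes with library values met this rule. RNA sequencing had been done on long-term haematopoietic stem cells (LT-HSCs), marrow cells from which every blood lineage can be renewed. The cells came from C57BL/6 mice aged 8 to 12 weeks and were sorted by surface markers as LSK CD34- Flk2- (LSK stands for lineage-negative, Sca-1-positive, Kit-positive). There were 2 libraries from Sin3B KO cells and 2 from WT cells. Sin3B belongs to a co-repressor complex that brings histone deacetylases to genes, and the labels do not say how or in which cells it was deleted. Whether 2 libraries of 1 genotype stem from different mice is not stated, so the p-values reflect only how these libraries vary, and that variation may be technical.

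Complex I takes electrons from NADH and passes them along a flavin and a chain of iron-sulphur clusters to ubiquinone, while it pumps protons out of the matrix. A small core, conserved since bacteria, does the chemistry and the pumping. Its hydrophilic part is encoded in the nucleus (Ndufv and Ndufs names) and its membrane part in mitochondrial DNA, and around it sit many accessory subunits. Assembly factors (Ndufaf names) build the complex and leave it. Adult stem cells of the marrow are known for relying little on respiration while quiescent. By these roles the 39 genes were 7 core subunits, 25 accessory subunits, 6 assembly factors and Ndufa4, whose product is now counted with complex IV. Another 7 genes of these families (Ndufab1, Ndufb2, Ndufb4, Ndufs5, Ndufaf6, Ndufaf8 and Ndufa4l2) have no row with this name and were not analysed here, nor were the 7 subunits encoded in mitochondrial DNA.

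The libraries held between 9950979 and 13700630 reads in the listed genes, WT 1 being the smallest. Sin3b itself was at 755.4 and 646.5 normalised reads in Sin3B KO cells, against 1522 and 1825 in WT cells (log2 fold change -1.25, SE 0.22, adjusted p = 0.548 by limma). The authors' deposited table gives it a log2 fold change of -1.03 and an adjusted p of 0.0025. The labelled cell type had its markers, with 12 of 12 HSC markers measured and a summed level of 80267 and 92072 in Sin3B KO cells, against 87211 and 84864 in WT cells. Markers of other blood cells were present too and are given below.

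The promoters of 4 members are shown because they carry motifs of factors known to act on respiratory genes. Ndufa9, Ndufs7 and Ndufaf4 are among the members with the larger differences described below, and Ndufaf5 is 1 of the 2 with a difference below 0. They are RefSeq sequences of the GRCm38.p6 build (the submitters' processing notes name mm9), with 250 bases before the annotated start and 50 after it. Ndufa9 (chr6:126849095-126849394, minus strand) encodes an accessory subunit at the joint of the membrane and matrix arms. Ndufs7 (chr10:80249199-80249498, plus strand) encodes the core subunit that carries the last iron-sulphur cluster before ubiquinone. Ndufaf4 (chr4:24897833-24898132, plus strand) and Ndufaf5 (chr2:140170396-140170695, plus strand) encode assembly factors, the second an enzyme that modifies Ndufs7. Capitals mark the YY1 motif in the first pair and the NRF1 motif in the second pair, in which the fifth letter may be any base and the others are as shown.
Ndufa9: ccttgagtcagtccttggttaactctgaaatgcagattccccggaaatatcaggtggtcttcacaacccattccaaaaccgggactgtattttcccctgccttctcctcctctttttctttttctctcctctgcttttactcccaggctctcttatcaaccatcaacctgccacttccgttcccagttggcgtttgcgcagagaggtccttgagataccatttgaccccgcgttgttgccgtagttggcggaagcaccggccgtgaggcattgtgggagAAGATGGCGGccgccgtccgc
Ndufs7: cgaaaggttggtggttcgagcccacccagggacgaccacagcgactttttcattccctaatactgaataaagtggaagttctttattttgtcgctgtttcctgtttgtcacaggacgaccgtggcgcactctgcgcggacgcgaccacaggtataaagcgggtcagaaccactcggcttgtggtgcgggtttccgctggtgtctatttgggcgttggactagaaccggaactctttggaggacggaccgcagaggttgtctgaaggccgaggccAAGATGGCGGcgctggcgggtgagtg
Ndufaf4: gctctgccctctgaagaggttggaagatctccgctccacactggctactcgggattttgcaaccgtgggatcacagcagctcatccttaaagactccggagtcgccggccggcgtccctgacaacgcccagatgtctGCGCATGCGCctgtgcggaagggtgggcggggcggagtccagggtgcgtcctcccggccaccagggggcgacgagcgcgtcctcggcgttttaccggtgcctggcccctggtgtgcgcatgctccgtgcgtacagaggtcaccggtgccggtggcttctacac
Ndufaf5: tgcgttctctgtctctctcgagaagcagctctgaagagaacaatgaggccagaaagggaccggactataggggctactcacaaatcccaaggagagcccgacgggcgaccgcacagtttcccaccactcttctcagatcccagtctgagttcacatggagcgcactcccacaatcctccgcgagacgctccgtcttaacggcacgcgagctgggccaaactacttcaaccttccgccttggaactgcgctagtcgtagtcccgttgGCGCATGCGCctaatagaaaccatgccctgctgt
The YY1 motif started 29 bases after the annotated start in Ndufa9 and 24 after it in Ndufs7. The NRF1 motif lay 113 bases before the start in Ndufaf4 and 16 after it in Ndufaf5.

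A promoter was found for 35 of the 39 members. Both strands were searched for exact matches. In 0 of the 35 members did matches of different motifs overlap. The YY1 motif was in 4 of the 35 members (11.4%), Ndufa9, Ndufs4, Ndufs6 and Ndufs7, against 0.995% of all 27025 genes with a promoter and 2.87% of the 7079 genes that also have library values. The NRF1 motif was in 7 members (20%), Ndufa5, Ndufa6, Ndufa8, Ndufa11, Ndufaf4, Ndufaf5 and Ndufs6, against 5.19% of all genes and 12.8% of those with library values. The ETS motif CCGGAAG was in 5 members (14.3%), against 9.93% of all genes and 22.5% of those with library values. The E-box CACGTG was in 2 (5.71%), against 8.09% of all genes and 12.5% of those with library values. The ERR motif TCAAGGTCA was in 0, against 0.466% of all genes and 0.311% of those with library values. The 4 members with the YY1 motif had log2 fold changes between 0.19 and 0.57. Those of the 7 with the NRF1 motif lay between -0.06 and 0.56. The 5 with the ETS motif lay between -0.01 and 0.34, and the 2 with the E-box between 0.29 and 0.46. All 39 members lay between -0.06 and 0.70, with 37 above 0. A match describes these letters only, and no match says only that the letters are not in this window.

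Levels of the 39 genes spanned a wide range, with assembly factors among the lowest. Per kilobase of the principal annotated transcript, the highest mean level over the 4 libraries was 3015 normalised reads per kilobase for Ndufb9, with Ndufa8 at 2929 and Ndufb10 at 2803. The lowest were Ndufaf5 at 133.0, Ndufc1 at 205.3 and Ndufaf4 at 307.2 per kilobase. Such ranks depend on the annotated length. Ndufaf4 has a principal transcript of 3632 bases, and its undivided mean of 1116 normalised reads ranked 19 of the 39. Core subunits had a median of 1279 per kilobase and accessory subunits of 1010, whereas the 6 assembly factors had 403.0. All genes tested had a median of 236.7 per kilobase. Without division by length the median was 1007 normalised reads for the 39 members and 708.9 for all genes. Within the core, Ndufs8 was at 2214, Ndufs7 at 2029, Ndufv1 at 1635, Ndufv2 at 1279, Ndufs1 at 625.1 and Ndufs3 at 320.4 normalised reads per kilobase. Ndufs3, which helps to anchor the quinone-binding module, was thus the lowest core subunit on this scale. The highest member exceeded the lowest, in each library the assembly factor Ndufaf5, 26.7-fold and 24.7-fold per kilobase in Sin3B KO 1 and 2, and 20.2-fold in each WT library.

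**Figure D1:**
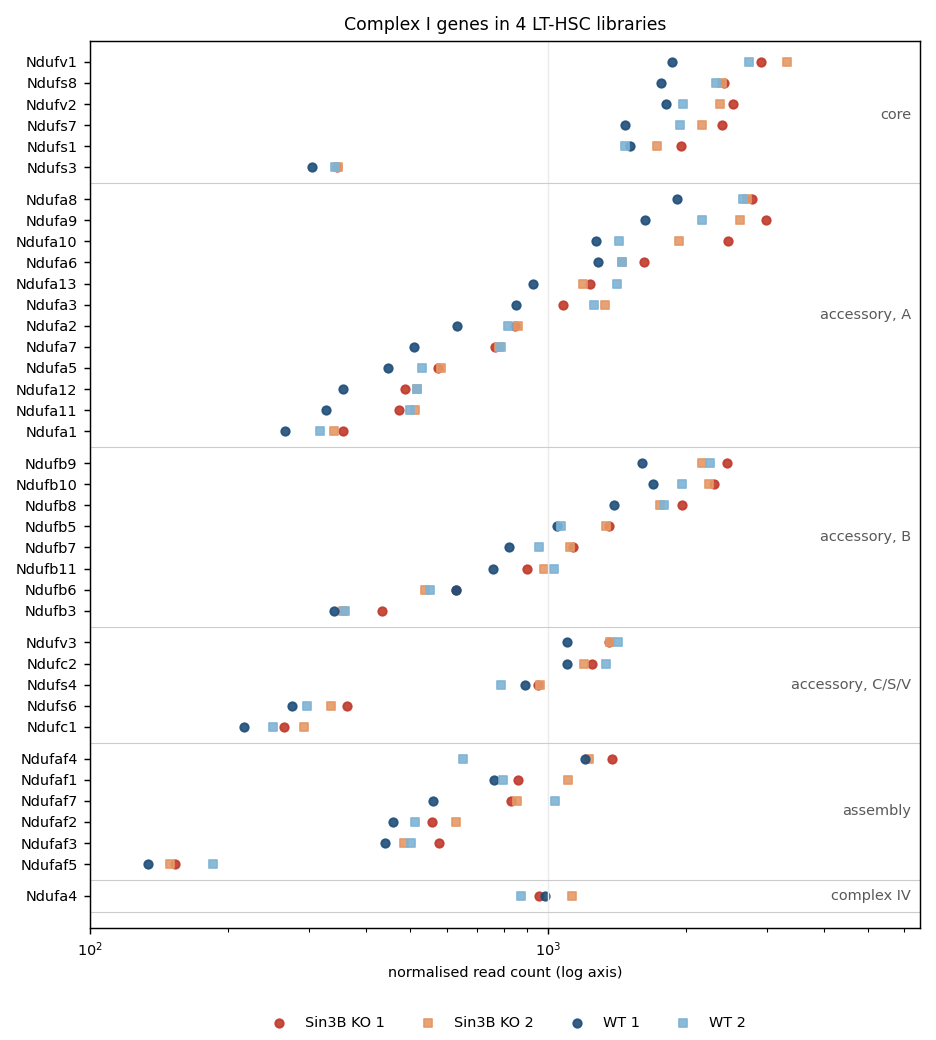
Normalised read counts of the complex I genes, all but 1 of the 39, in the 4 libraries (log axis), grouped by role, with 1 point per library. The dark blue points of WT 1 are the lowest of the 4 for most genes, and Ndufaf4 is an exception with WT 2 lowest.

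Between genotypes, most complex I genes had somewhat higher values in Sin3B KO cells, and none passed the test. The log2 fold change of Sin3B KO over WT was above 0 for 37 of 39 members, with a median of 0.25 and quartiles of 0.17 and 0.31. Over all 9244 genes the median was 0.03, and 53.4% were above 0. By limma, 0 members had a Benjamini-Hochberg adjusted p under 0.05 (smallest 0.548), as did 0% of all genes. At an unadjusted limma p under 0.05 there were 2 members, Ndufa10 and Ndufa9, both higher, where the background was 4.97% of all genes higher, 3.95% lower and 8.91% in either direction. The authors' deposited table gave 0 members an adjusted p under 0.05 (smallest 0.216), where the background was 0.316%. It gave the same 2 genes an unadjusted p under 0.05, where the background was 9.5%. The sign was the same in both sources for 39 of 39 members, and the median of the members in the authors' deposited table was 0.18.

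For 21 of the 39 members the lower Sin3B KO value exceeded the higher WT value, and for 0 the reverse held. The background was 24.7% of all genes with both Sin3B KO values above and 19.4% with both below. The other 18 members overlapped. The count was 12 members with the libraries scaled by their upper quartile, where the background was 16.1%. That scaling moved the median of all genes by -0.11, to -0.08, and under it the median of the members was 0.14, with 33 of 39 above 0.

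The 95% confidence intervals were wide beside these differences. They lay wholly above 0 for 2 members, while for 35 members the upper bound was under 1, a doubling. Summed over the 39 genes, the level was 51010 and 49214 normalised reads in Sin3B KO cells, against 36888 and 45391 in WT cells. The Sin3B KO libraries lie close together and the WT libraries far apart. The mean of the sums was 50112 ± 1270 in Sin3B KO cells and 41139.5 ± 6012 in WT cells (SD, n = 2 each), a ratio of 1.22, where all genes tested gave a ratio of 1.06. As a share of the listed signal the genes made up 0.420% and 0.403% in Sin3B KO cells, against 0.325% and 0.390% in WT cells. In RNA from sorted cells, fewer cells of a type and less RNA per cell cannot be told apart.

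**Figure D2:**
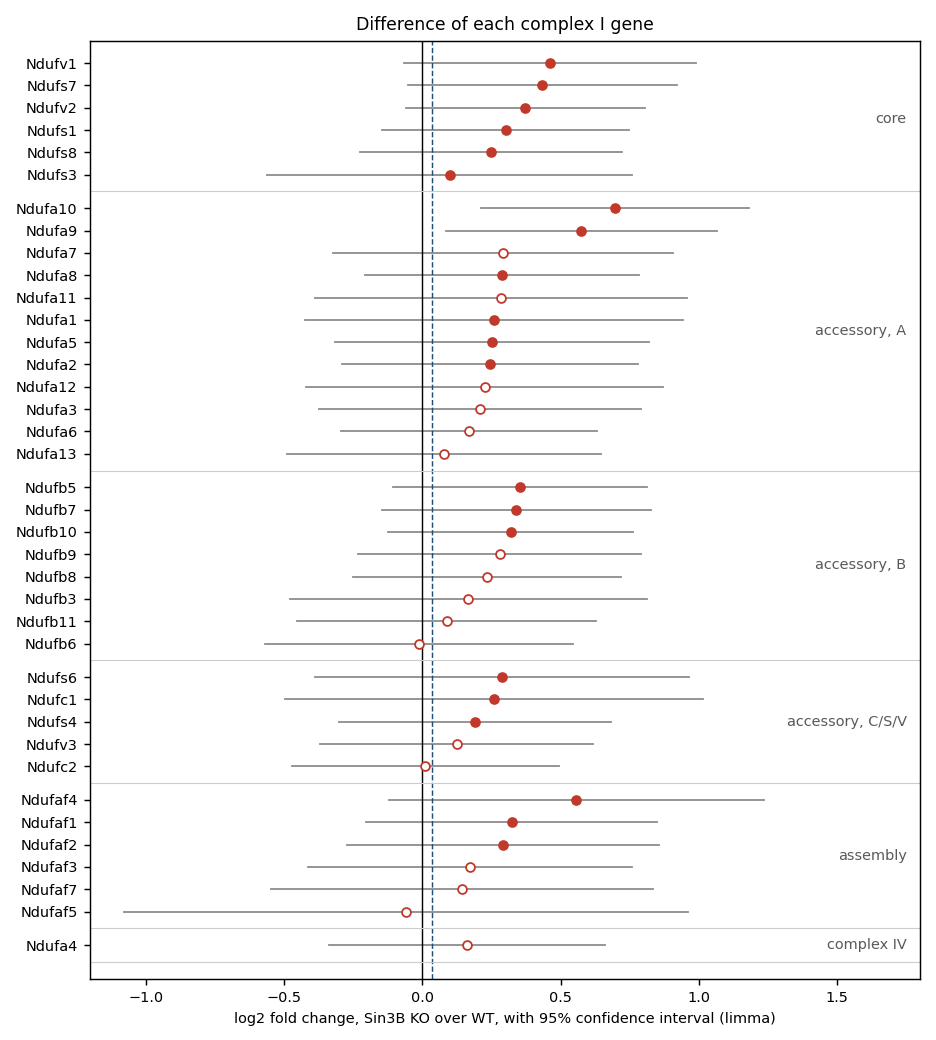
Log2 fold change of Sin3B KO over WT for the complex I genes, all but 1 of the 39, each with its 95% confidence interval (limma, n = 2 libraries each), grouped by role. Filled points mark the 21 genes with both Sin3B KO values above both WT values, the dashed line marks the median of all genes at 0.03, and Ndufa10 and Ndufa9 have intervals that lie above 0.

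The core subunits carry the flavin and the iron-sulphur clusters. Ndufv1, which binds NADH and the flavin, was at 2916 and 3331 in Sin3B KO cells, against 1863 and 2752 in WT cells (log2 fold change 0.46, SE 0.23). Both Sin3B KO values were above both WT values, but the WT values differed from each other by more than the nearer pair across genotypes. Ndufv2, its iron-sulphur partner, was at 2528 and 2369 in Sin3B KO cells, against 1813 and 1973 in WT cells (0.37, SE 0.19). Ndufs1, the largest core subunit and the next in the electron path, was at 1945 and 1731 in Sin3B KO cells, against 1507 and 1470 in WT cells (0.30, SE 0.20). For Ndufv2 and Ndufs1 the values within each genotype lay close together and the groups did not overlap.

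Nearer to ubiquinone, Ndufs7 was at 2402 and 2167 in Sin3B KO cells, against 1473 and 1937 in WT cells (0.43, SE 0.21). Ndufs8, which holds a pair of iron-sulphur clusters, was at 2417 and 2395 in Sin3B KO cells, against 1767 and 2320 in WT cells (0.25, SE 0.21). Ndufs3 was at 345.0 and 347.8 in Sin3B KO cells, against 305.6 and 342.2 in WT cells (0.10, SE 0.29). The groups of Ndufs3 did not overlap, but its log2 fold change was -0.01 under upper quartile scaling. All 7 core subunits were above 0 over the 4 libraries, with a median of 0.30. Without WT 1 the log2 fold change was 0.18 for Ndufv1, 0.24 for Ndufs7, 0.052 for Ndufs8 and 0.018 for Ndufs3, while it was 0.31 for Ndufv2 and 0.32 for Ndufs1.

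Accessory subunits surround the core and stabilise it. Of the 25, 24 were above 0, with a median log2 fold change of 0.25, and 12 did not overlap, all with Sin3B KO above, where the background was 24.7% of all genes. Ndufa10, a membrane arm subunit related to nucleoside kinases, was at 2466 and 1932 in Sin3B KO cells, against 1271 and 1428 in WT cells. Its log2 fold change of 0.70 (SE 0.21, interval 0.21 to 1.18) was the largest of the 39, with an adjusted p of 0.548 by limma and of 0.216 in the authors' deposited table. Ndufa9 was at 2984 and 2617 in Sin3B KO cells, against 1625 and 2168 in WT cells (0.57, SE 0.22, interval 0.084 to 1.06). The groups did not overlap for either gene. Ndufa8, a cysteine-rich subunit on the outer side of the membrane, was at 2789 and 2722 in Sin3B KO cells, against 1911 and 2665 in WT cells (0.29, SE 0.22). For Ndufa8 it was WT 1 that stood apart, while WT 2 lay close to both Sin3B KO libraries, and the log2 fold change was 0.048 without WT 1.

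The 12 subunits with A names, which sit in several parts of the complex, had a median log2 fold change of 0.25 and a range of 0.08 to 0.70. At the low end was Ndufa13, known also as Grim19, at 1233 and 1189 in Sin3B KO cells, against 928.1 and 1414 in WT cells. Its 2 WT values lay on either side of both Sin3B KO values. The 8 subunits with B names, which belong to the membrane arm, had a median of 0.26 and a range of -0.01 to 0.35. Ndufb5 was at 1359 and 1339 in Sin3B KO cells, against 1044 and 1068 in WT cells (0.35, SE 0.20), tight within each genotype. Ndufb10 was at 2302 and 2249 in Sin3B KO cells, against 1694 and 1963 in WT cells (0.32, SE 0.19). Ndufb6 was the exception among accessory subunits, at 629.5 and 539.5 in Sin3B KO cells, against 628.2 and 550.9 in WT cells (-0.01, SE 0.24). The libraries numbered 1 were the higher ones in both genotypes for Ndufb6.

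The 5 subunits with C, S and V names had a median log2 fold change of 0.19. Ndufs6, a zinc-binding subunit of the NADH-oxidising end, was at 363.3 and 336.2 in Sin3B KO cells, against 275.9 and 296.7 in WT cells (0.29, SE 0.30). Ndufs4, whose loss in mice gives a Leigh-like encephalopathy, was at 950.5 and 960.4 in Sin3B KO cells, against 890.5 and 788.3 in WT cells (0.19, SE 0.22). In both genes the groups did not overlap. Ndufc1, a small membrane subunit, was at 265.3 and 293.4 in Sin3B KO cells, against 216.6 and 250.2 in WT cells (0.26, SE 0.33). Its neighbour in the complex Ndufc2 was at 1246 and 1199 in Sin3B KO cells, against 1100 and 1337 in WT cells (0.01, SE 0.21). The groups of Ndufc2 overlapped and those of Ndufc1 did not.

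Assembly factors had the lowest median level per kilobase of these roles, and 5 of 6 were above 0 with a median log2 fold change of 0.23. Ndufaf4 was at 1379 and 1229 in Sin3B KO cells, against 1203 and 651.8 in WT cells (0.56, SE 0.30). Its difference rested on WT 2, since the log2 fold change was 0.11 without that library and 0.997 without WT 1. Ndufaf3, its partner in building the quinone-binding module, was at 578.6 and 485.1 in Sin3B KO cells, against 441.2 and 500.5 in WT cells (0.17, SE 0.26). Ndufaf1, which acts on the membrane arm, was at 857.3 and 1105 in Sin3B KO cells, against 760.5 and 796.2 in WT cells (0.32, SE 0.23). Ndufaf2, a paralogue of Ndufa12 that stands in for it during assembly, was at 557.4 and 628.7 in Sin3B KO cells, against 457.2 and 511.4 in WT cells (0.29, SE 0.25). The groups of Ndufaf1 and Ndufaf2 did not overlap, and those of Ndufaf3 did.

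The other pair of assembly factors are methyltransferase-like enzymes. Ndufaf7 was at 830.4 and 853.4 in Sin3B KO cells, against 561.0 and 1036 in WT cells (0.14, SE 0.30). Without WT 1 its log2 fold change was -0.30. Ndufaf5 was at 152.8 and 148.9 in Sin3B KO cells, against 133.4 and 185.0 in WT cells (-0.06, SE 0.45), and was the least abundant member. For both genes the 2 WT values lay on either side of the Sin3B KO values. Ndufa4, the complex IV subunit with a complex I name, was at 954.4 and 1125 in Sin3B KO cells, against 985.1 and 872.4 in WT cells (0.16, SE 0.22).

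The size of the difference between genotypes depended on which WT library was kept, and which of them is unusual cannot be told. WT 1 had the lowest of the 4 values for 34 of 39 members, where the background was 30.6% of all genes. WT 2 was lowest for 4 members and Sin3B KO 2 for 1. The highest value was in Sin3B KO 1 for 19 members, in Sin3B KO 2 for 12, in WT 2 for 8 and in WT 1 for 0. As a log2 deviation from the mean of the 4 libraries, the median member was at 0.13 in both Sin3B KO libraries, against -0.26 in WT 1 and 0.0043 in WT 2. The medians of all genes were 0.024 and 0.025 in Sin3B KO 1 and 2, against -0.025 in WT 1 and 0.0034 in WT 2.

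**Figure D3:**
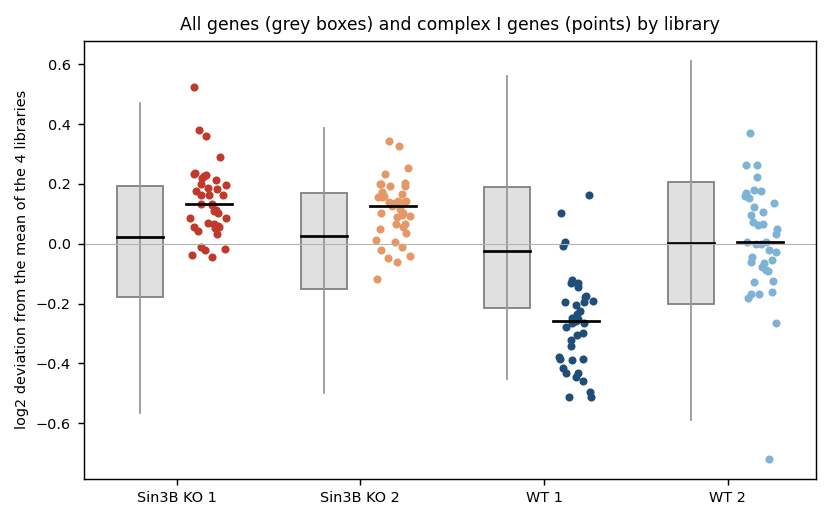
Log2 deviation of each gene from its mean over the 4 libraries. Grey boxes give the median and quartiles of all 9244 genes with lines to the 5th and 95th percentiles, and points are the 39 complex I genes with their median as a bar, which lies at 0.13 in the Sin3B KO libraries and at -0.26 in WT 1.

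Without WT 1 the median log2 fold change of the 39 members was 0.08, with 28 above 0, and all genes had a median of 0.03. Without WT 2 it was 0.38, with 38 above 0. Without Sin3B KO 1 or 2 it was 0.26 in both cases. The summed level in Sin3B KO cells was 1.10 times that of WT 2 alone, where all genes gave 1.05. Both Sin3B KO values were above WT 2 for 22 members, where the background was 41.2%, and above WT 1 for 37 members, where it was also 41.2%. Ndufa10 and Ndufa9 had log2 fold changes of 0.61 and 0.37 without WT 1.

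**Figure D4:**
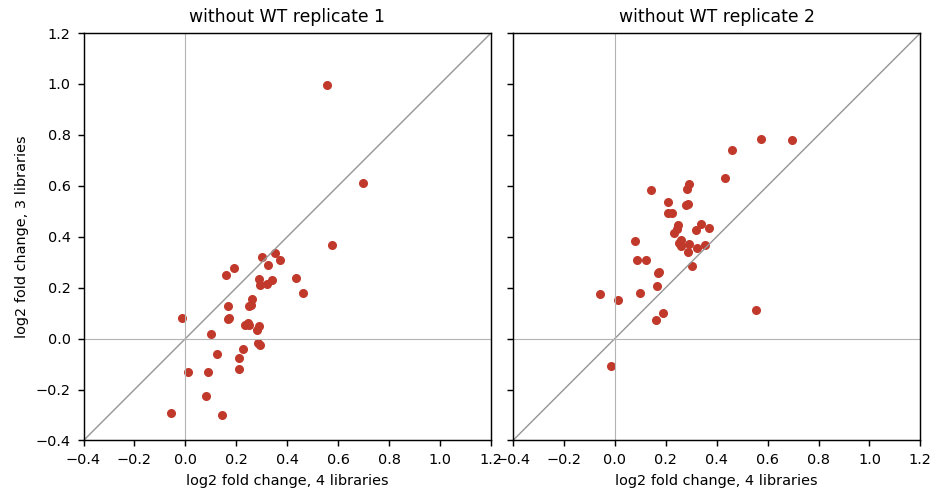
Log2 fold change of each complex I gene with 3 libraries (vertical axis) against that with 4 (horizontal axis), without WT 1 on the left and without WT 2 on the right, with the diagonal as equality. Most points lie under the diagonal on the left, where the median is 0.08, and above it on the right, where the median is 0.38.

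Properties of the libraries that moved with this result were measured. WT 1 had the fewest reads and the highest share of the ribosomal RNA precursor Rn45s, at 0.627% and 0.453% of that signal in Sin3B KO 1 and 2, against 1.23% in WT 1 and 0.858% in WT 2. Across 9000 genes, log2 fold changes were lower for longer transcripts (Spearman rho -0.271, a description over genes that share the same 4 libraries). The members are short, with a median transcript of 983 bases, against 3037.5 bases over all genes. After removal of the trend with length the median of the members was 0.15, with 33 of 39 above 0, and that of all genes 0.044. Fold changes were also higher among abundant genes, the median of all genes with a mean of at least 500 being 0.11. The members above that level, 31 of 39, had a median of 0.25. The part of depth, Rn45s share and abundance in the result was not tested.

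RNA of markers of other lineages was read in different amounts in the 4 libraries. The summed level of 11 of 11 myeloid markers was 52985.5 and 24275 in Sin3B KO cells, against 77274 and 14698 in WT cells, so that WT 1 was the highest. For 8 of 10 erythroid markers it was 18861 and 7585 in Sin3B KO cells, against 8762 and 5577 in WT cells, and for 6 of 9 B lineage markers it was 4465 and 1703 in Sin3B KO cells, against 3809 and 1503 in WT cells. The 8 erythroid markers measured all had a log2 fold change above 0, where the background was 53.4% of all genes. Both Sin3B KO values were above both WT values for 3 of them, where the background was 24.7%. Alas2 (SE 1.88) and Slc4a1 (SE 2.71) were below 0 in the authors' deposited table. Their mean levels were also lower in Sin3B KO cells, at 296.0 and 399.8, against 381.9 and 596.9 in WT cells. Gata1, the erythroid and megakaryocytic transcription factor, was at 3144 and 1842 in Sin3B KO cells, against 1004 and 1063 in WT cells (1.22, SE 0.27, adjusted p = 0.548 by limma), and the authors' deposited table gives it an adjusted p of 0.0070. Car1, a carbonic anhydrase and the largest part of the erythroid sum, was at 10488 and 3984 in Sin3B KO cells, against 2847 and 3353 in WT cells (1.06, SE 0.38, adjusted p = 0.548 by limma). Unadjusted limma p-values under 0.05 were also found for the HSC marker Fgd5 (-1.21) and the megakaryocyte marker Itgb3 (-0.77), both lower. At that threshold the background was 4.97% of all genes higher and 3.95% lower. For 7 of 8 megakaryocyte markers the sum was 8145 and 8848 in Sin3B KO cells, against 12170 and 7604 in WT cells. Within this sum Ppbp alone was at 121.1 and 41.9 in Sin3B KO cells, against 3854 and 89.0 in WT cells. The sums of T and NK (4 of 9 markers), macrophage and dendritic (4 of 9) and endothelial and stromal markers (3 of 7) lay between 1679 and 9573 in all libraries. Slc4a1 and Il7r were at 0 in WT 2, and no other measured marker was at 0. Between the libraries numbered 2 and 1 of both genotypes the myeloid list differed by a median of -2.31 on the log2 scale and the members by 0.12. Whether this marker RNA came from other cells was not tested, nor was its part in the result.

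Other mitochondrial lists are given for comparison, by counts only. Of 12 assembly factors of complex I with other names 7 were measured and 5 were above 0, with a median log2 fold change of 0.26 and 0 under an unadjusted p of 0.05. The most abundant were Tmem186, at 1424 and 1686 in Sin3B KO cells, against 1249.6 and 1044 in WT cells, and Foxred1, at 1569 and 1210 in Sin3B KO cells, against 1132 and 1216 in WT cells. The 4 subunits of complex II had a median of 0.40, and all 4 had both Sin3B KO values above both WT values (24.7% of all genes). Of these, Sdha, the flavin subunit, was at 11134 and 9730.2 in Sin3B KO cells, against 7197 and 8132 in WT cells, and Sdhb, the iron-sulphur subunit, at 2993 and 2771 in Sin3B KO cells, against 1805 and 2084 in WT cells. Both had an unadjusted limma p under 0.05 (log2 fold changes 0.44 and 0.57, adjusted p = 0.548 each). Complex III had a median of 0.25 (7 of 9 above 0), complex IV of 0.02 (5 of 9) and ATP synthase of 0.15 (10 of 12). The most abundant gene of each had log2 fold changes of 0.25 (Uqcrc1), 0.38 (Cox4i1) and 0.39 (Atp5a1). The 72 mitochondrial ribosomal proteins had a median of 0.26, with 65 above 0 and 8 at an unadjusted p under 0.05, all higher, where the background was 4.97% of all genes (Mrpl16, Mrpl20, Mrpl35, Mrpl44, Mrpl50, Mrps2, Mrps18a and Mrps31, log2 fold changes 0.50 to 0.74). In none of these lists did a gene pass after adjustment over all genes by limma. Differences between the lists were not tested.

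**Figure D5:**
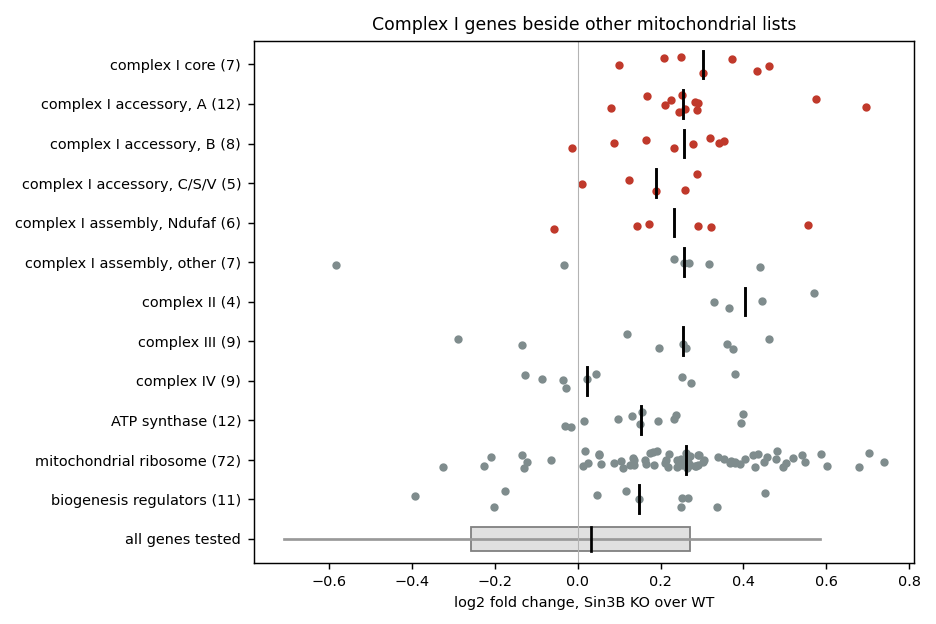
Log2 fold change of Sin3B KO over WT for each gene of the complex I roles (red) and of other mitochondrial lists (grey), with the list median as a bar and the number of genes in brackets. The bottom row gives the median, quartiles and 5th to 95th percentiles of all genes tested. Complex I roles have medians of 0.19 to 0.30, beside 0.02 for complex IV and 0.40 for complex II.

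WT 1 was the lowest library for 53 of the 72 mitochondrial ribosomal protein genes, where the background was 30.6% of all genes. The same held for 4 of 4 complex II, 6 of 9 complex III, 3 of 9 complex IV and 7 of 12 ATP synthase genes. Regulators of mitochondrial biogenesis had a median log2 fold change of 0.15 (11 of 13 measured, 8 above 0, 0 at an unadjusted p under 0.05). Nrf1, the factor of the NRF1 motif, was at 1908 and 1636 in Sin3B KO cells, against 1551 and 1887 in WT cells. Yy1 was at 339.3 and 390.6 in Sin3B KO cells, against 417.3 and 404.5 in WT cells (-0.17, SE 0.27). Tfam, which packages mitochondrial DNA, was at 1725 and 1509 in Sin3B KO cells, against 1320 and 1361 in WT cells (0.27, SE 0.20). Myc was at 11019 and 9302 in Sin3B KO cells, against 8124 and 8927 in WT cells (0.25, SE 0.19). Of the 11 regulators, 4 had both Sin3B KO values above both WT values, 1 had both below and 6 overlapped. The background was 24.7% of all genes above and 19.4% below. Tfam and Myc were among the 4 above, Yy1 was the 1 below, and Nrf1 overlapped.

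Some counts could hold reads of other genes. In the GENCODE annotation 11 members share exon sequence with a gene on the opposite strand, among them Ndufs1, Ndufs3, Ndufs6, Ndufa9, Ndufaf3 and Ndufb6, and the strand used in counting is not given in the sources used here. Another 2, Ndufb8 and Ndufb9, share exons with a gene on the same strand. Ndufs6 and Ndufa11 have annotated second copies, Ndufs6b and Ndufa11b, and how the authors treated reads that fit both is not given either. Ndufa10, the member with the largest difference, has no such overlap in this annotation, and copies of it were not searched for.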

How the data were processed

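Polyadenylated RNA of sorted LT-HSCs was made into libraries by the SMARTer low-input method, per the labels' protocols. Bowtie, DESeq and mm9 appear in the submitters' processing notes; counter, annotation and versions are not given there. The library values the authors deposited are a signal, read counts scaled by a size factor: in each library they were whole multiples, within 0.01, of 1 step (0.961 and 0.892 for Sin3B KO 1 and 2, 1.14 and 0.989 for WT 1 and 2), and reads were taken as values over steps. With few low values listed, this recovery of whole reads could not be checked further, so depths are estimates and count models were not run. The deposited table also holds the authors' log2 fold change, its standard error, their test score, and p-values (unadjusted and adjusted). The smallest listed mean was 120.2, and 552 of 9796 rows (5.63%) have no library values and were left out.

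All 9244 genes were fitted with limma 3.58.1 (R 4.3.3) on log2(value + 1) with a trended prior, Sin3B KO against WT, and p-values were adjusted by Benjamini-Hochberg over all genes. Fold changes are on that scale, which understates those of low genes. The filter, at least 1 in 2 or more libraries, removed 0 genes. Transcript lengths are those of principal transcripts in GENCODE M21. The fit was also run on simulated data with independent noise for each gene. Those data hold no shift shared within a library, so they cannot test for one. The members, lists and motifs were chosen with earlier results of these data known. Values in every library are given for core subunits (1 is not reported here by itself, though it is in the counts), assembly factors, the 4 members of smallest p per direction and the 3 most and least abundant; of the other mitochondrial lists, genes with an unadjusted p under 0.05 or else the most abundant are named. Ndufa4, Ndufa13, Ndufb5, Ndufb10, Ndufc2, Ndufs4, Yy1, Tfam and the cell type markers lie outside this rule and were picked with their values known. The titles' replicate numbers are used. Alternatives were other scalings, pseudocounts of 0.1 and 5, a mean of at least 500, no intensity trend, the replicate number as a block, removal of the length trend, and each library left out. The counts above 0 or without overlap were added to these after seeing the data.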

Additional observations from a re-analysis of the deposited data

How the results depend on the processing

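Over the 4 libraries 0 complex I genes passed under any setting run, including each library left out. Over all genes the count of passing genes was 27 with the replicate number as a block and 0 to 1 with 1 library left out, against 0 in the main fit; it was 0 under the scalings, pseudocounts, filters and prior tried. With the replicate block the smallest adjusted p of a complex I gene was 0.133, and 5 of them had an unadjusted p under 0.05, where 17.0% of all genes did. Sin3b itself had an adjusted p of 0.0282 with the replicate block, against 0.548 without it. The labels do not say what the number marks; the difference of replicate 1 and 2 in Sin3B KO cells correlated with that in WT cells at 0.46 over all genes and at 0.18 over the complex I genes, a description over genes. The median log2 fold change of complex I genes ranged from 0.082 to 0.38 with 1 library left out, and from 0.14 to 0.25 under the other settings. The count with both Sin3B KO values above both WT values was 12 under upper quartile scaling, where the background was 16.1% of all genes. With 1 library left out fewer values have to be in order. The count was then 25 without Sin3B KO 1 and 27 without Sin3B KO 2 (background 36.1% and 37.1%). It was 22 without WT 1 and 37 without WT 2 (background 41.2% in both cases). With 1 library left out the log2 fold change ranged from -0.29 to 0.18 for Ndufaf5, from -0.30 to 0.58 for Ndufaf7 and from -0.12 to 0.10 for Ndufb6. That of Ndufs3 was -0.014 under upper quartile scaling and -0.0075 with the length trend removed. Where a change has no value beside it above, the cause was not tested. With 2 libraries a group, the median 95% interval over all genes reached 0.60 to either side on the log2 scale, which is wider than the log2 fold change of most complex I genes. A left-out fit assumes that the lone library of a group varies like the others.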
